A study of Canis lupus familiaris with 4 samples.

Results

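Neighbouring accessible stretches of DNA at most 10 kb apart changed in opposite directions in 1073 pairs on the numbered chromosomes of MDCKII cells. In each pair a stretch became more accessible after the cells were detached and reseeded, while its neighbour became less accessible. These pairs comprised 2058 peaks out of 59081 in the series (3.48%), 1040 that rose and 1018 that fell, and 88 peaks belonged to 2 pairs. A pair was taken from consecutive peaks in chromosome order, and membership rested on M and R, the mean CPM (counts per 1000000 counts of the library in peaks) of the mature and of the reseeded libraries. The quotient (R + 0.5)/(M + 0.5) had to be at least 2 at one peak of the pair and at most 0.5 at the other. The members were therefore chosen by the difference between the groups that they show, and their ratios and fitted folds are given as a description with no test. Every peak is 501 bp wide, positions are those of CanFam3.1 counted from 1, and distances are between midpoints.

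MDCKII is an established line of epithelial cells from canine kidney that grows into polarised sheets. One group was cells grown for 7 d to full maturity ("mature", libraries A and B), and the other was cells grown in the same way, detached and reseeded for 2 h ("reseeded", libraries A and B). All 4 libraries are of the wild-type line, with no other agent named in the labels, and nothing in the labels says that A and B came from separate cultures, so the spread between them may be technical. The study concerns folds of the nuclear envelope and how chromatin is arranged in the nucleus, and the comparison asks how accessibility differs between a mature sheet and freshly reseeded cells.

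ATAC-seq uses the transposase Tn5, which inserts adapters where DNA is not wrapped in nucleosomes, so a peak marks a promoter, an enhancer or another site where proteins hold the DNA open. Genes are commonly served by several such elements spread over a few kilobases to many, and each element is opened or closed by the transcription factors and remodelling complexes that bind there. Neighbouring elements lie in the same surrounding chromatin and often change together, but each can also be controlled separately. The genes around the pairs and the DNA sequences of the peaks were not analysed here, so no peak is called a promoter or an enhancer.

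Total counts in peaks were 6253706 to 8759513 in the mature and 16906566 to 24015663 in the reseeded libraries, and 3 counts correspond to 0.125 to 0.48 CPM. Intervals and floors cover counting error only, and PCR copies may be among the counts. Both libraries of a group open their sample name with the same number, which is another one in the other group, so whatever it stands for cannot be told apart from reseeding. CPM compares peaks with each other, and a change common to all of them does not appear in it. The libraries come from pools of cells, so fewer cells with a site open and less opening per cell cannot be told apart, and whether both peaks of a pair were open in the same cells was not measured. Without gene annotation the epithelial label could not be checked against marker genes here.

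The 8 pairs in which the smaller of the 2 changes was largest are given with every library, as pairs 1 to 8 in that order. In pair 1, on chromosome 34, chr34:3819250-3819750 had 1.60 and 2.88 CPM in the mature libraries, A first, and reached 25.4 and 26.3 CPM in the reseeded libraries. Its neighbour 3577 bp away, chr34:3822827-3823327, went the other way, from 27.7 and 26.7 CPM to 3.31 and 2.21 CPM. The fitted log2 folds (reseeded over mature, edgeR, SE in parentheses) were 3.55 (0.18) and -3.39 (0.15). The level that each peak had in its open state was thus nearly the same, and the open peak was the left one in reseeded and the right one in mature cells in both libraries of each group.

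Pair 2 lay on the same chromosome. Its rising peak, chr34:22343326-22343826, had 4.34 and 4.80 CPM in mature and 44.8 and 42.3 CPM in reseeded cells, and its falling peak 4167 bp away, chr34:22339159-22339659, had 15.1 and 14.2 CPM and then 1.18 and 1.62 CPM. Pair 3, on chromosome 9, reached the highest level of the 8: chr9:33031077-33031577 rose from 10.0 and 11.7 to 84.8 and 85.6 CPM, and chr9:33022229-33022729, 8848 bp away, fell from 30.3 and 32.0 to 3.49 and 4.25 CPM. In pair 4, on chromosome 1, chr1:78645014-78645514 rose from 1.37 and 2.40 to 17.1 and 15.9 CPM, and chr1:78653772-78654272, 8758 bp away, fell from 19.9 and 24.6 to 2.01 and 2.66 CPM. In pairs 2 to 4 the groups did not overlap at either peak, which held in every member pair and at 91.1% of single peaks in the whole table. Within these pairs the libraries of a group differed most, as a ratio, at the rising peak of pair 4 in mature cells.

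Pair 5 was the closest of the 8, with midpoints 1453 bp apart. Here chr3:40114103-40114603 rose from 5.82 and 3.20 to 33.5 and 35.6 CPM and chr3:40115556-40116056 fell from 10.5 and 7.84 to 1.06 and 0.750 CPM. At both of its peaks mature library A was above mature library B, so the mature libraries disagreed on the level but not on which peak was higher. In pair 6 the peak at chr2:19803809-19804309 rose from 1.48 and 2.24 to 16.4 and 15.1 CPM, and the peak at chr2:19796182-19796682 fell from 10.6 and 11.8 to 1.12 and 1.29 CPM.

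Pair 7 differed from the others in that its peaks were alike in mature cells. The rising peak, chr1:68954291-68954791, had 6.74 and 7.04 CPM there and the falling peak, chr1:68949426-68949926, had 5.37 and 9.59 CPM, so library A put the first higher and library B the second. After reseeding they stood at 49.6 CPM in each library against 0.710 and 0.625 CPM. Pair 8 had the deepest loss of the 8: chr7:8450032-8450532 fell from 10.6 and 9.43 to 0.296 and 0.583 CPM, which is 5 and 14 counts, for a log2 fold of -4.46 (SE 0.37), -4.13 without reseeded library A and -5.08 without reseeded library B. Under loess offsets, which remove the trend of the fold with the level, it was -7.71. Its partner 3580 bp away, chr7:8453612-8454112, rose from 2.74 and 2.88 to 21.0 and 20.7 CPM.

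**Figure D1:**
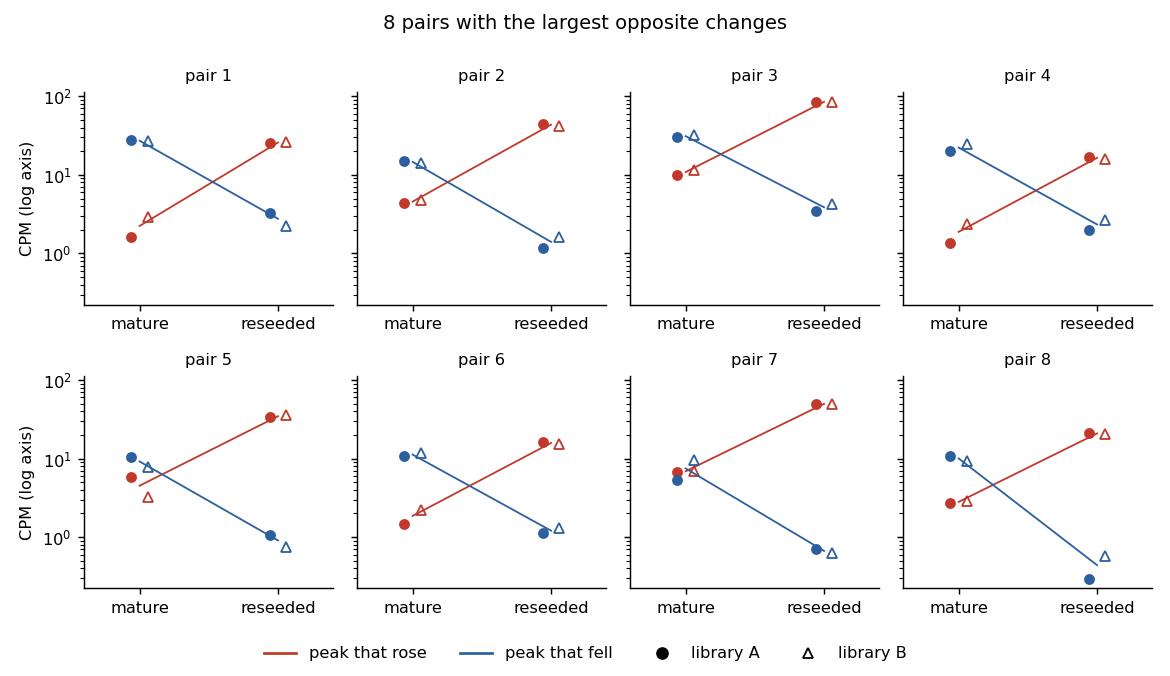
Accessibility of the 8 pairs with the largest opposite changes, in CPM on a log axis, for mature and reseeded cells. Filled circles are library A, open triangles library B, and lines join the group means. The lines cross in all 8 panels, and the peaks overlap in mature cells in pair 7 alone.

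At the other end of the rule, the pairs nearest to the threshold had a far smaller change at the peak that changed less. The pair just inside it, chr6:6873538-6874038 and chr6:6878851-6879351, had a rising peak at 4.05 ± 1.05 CPM in mature and 8.61 ± 0.131 CPM in reseeded cells (mean ± SD, n = 2), a ratio of 2.00, beside a falling peak that went from 33.1 ± 3.59 to 4.28 ± 0.193 CPM. The edgeR log2 fold of this rising peak was 1.09 (SE 0.21), but under loess offsets it was 0.06 and the peak was no longer called. The next 2 inside were chr23:31230147-31230647, which fell 2.00-fold, with chr23:31236602-31237102, which rose 2.10-fold, and chr4:5155042-5155542, which fell 2.00-fold, with chr4:5148000-5148500, which rose 2.53-fold. Just outside stood pairs on chromosomes 34, 29 and 5 whose smaller change was also 2.00-fold when rounded. In these, chr34:20608838-20609338 went from 21.5 ± 0.0883 to 43.5 ± 1.68 CPM, chr29:31804801-31805301 from 4.13 ± 1.16 to 8.76 ± 0.665 CPM and chr5:64579478-64579978 from 9.82 ± 0.811 to 20.1 ± 0.760 CPM. The boundary of the group is thus a line through a continuous range, as the plot of both ratios for all consecutive pairs shows.

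**Figure D2:**
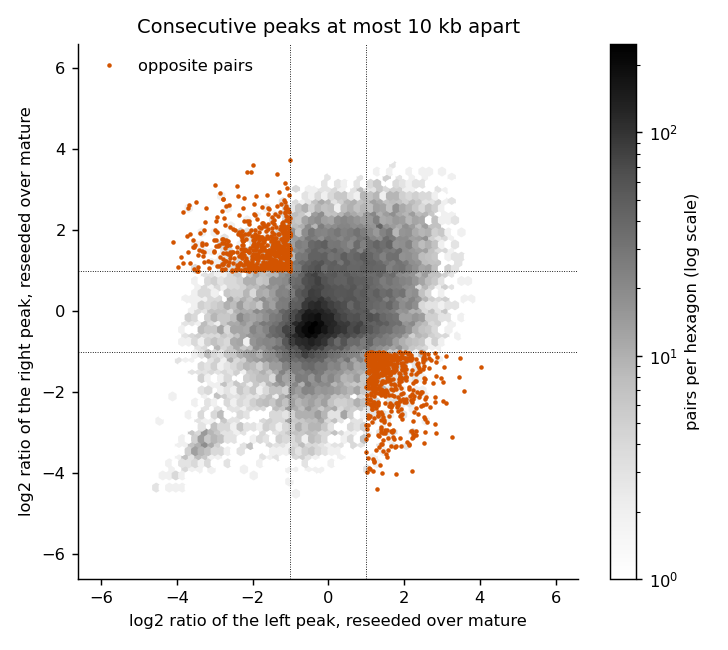
Log2 ratio of (CPM + 0.5), reseeded over mature, at the left (x axis) and right (y axis) peak of the 29829 pairs of consecutive peaks at most 10 kb apart. Grey hexagons count pairs on a log scale and orange points are the 1073 opposite pairs, which fill the 2 outer corners beyond the dotted lines of 2-fold change.

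Pairs far past the threshold at both peaks were a minority. At both peaks the change was at least 4-fold in 76 pairs (7.08%) and at least 2.83-fold in 303 (28.2%). The rising peak passed 4-fold in 211 pairs and the falling peak in 343. The size of the gain and the size of the loss were nearly unrelated, with a Spearman's rho of 0.042 across the 1073 pairs, which share the same 4 libraries. The rule cuts both sizes at 2-fold, which narrows their range, so rho describes these pairs only. In the fit of all peaks, edgeR called 1034 of 1040 rising members at least 2-fold higher at an adjusted p under 0.05, where 26.9% of all tested peaks were so called. All 1017 falling members that were tested were called at least 2-fold lower, against 15.0% of all tested peaks. The rule used this contrast, so nothing is read from these counts. At any fold, edgeR called all 1040 rising members higher and all 1017 tested falling members lower, beside 42.3% and 41.8% of all tested peaks, which makes 84.1% in either direction. Of all calls of at least 2-fold, 64.1% were higher by the scaling used here and 50.2% under loess offsets, where the medians of the fitted log2 folds of rising and falling members were 1.28 and -2.09 in place of 1.58 and -1.77. Loess offsets lowered the median of all peaks by 0.10 and left 724 rising members called at least 2-fold higher. Over all tested peaks, calls of at least 2-fold higher went from 15871 to 9766 under these offsets. With edgeR's folds in place of the CPM ratio there were 1225 pairs, 1065 of them among the 1073, and with edgeR's folds under loess offsets 971, 724 of them among the 1073. The groups did not overlap at either peak in any of the 1073 pairs, and single peaks had no such overlap in 91.1% of the whole table.

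The rising and the falling members were near mirror images in level. Rising members had a median of 5.00 CPM in mature cells (quartiles 3.30 and 8.02) and 16.9 CPM in reseeded cells (quartiles 11.4 and 25.9). Falling members had a median of 16.1 CPM in mature cells (quartiles 11.9 and 24.4) and 4.67 CPM in reseeded cells (quartiles 2.82 and 7.56). By library, the medians of the rising members were 4.51 and 5.44 CPM in mature A and B and 16.7 CPM in each reseeded library. Those of the falling members were 16.1 and 16.2 CPM in mature and 4.61 and 4.71 CPM in reseeded cells.

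Few members were near 0 in their low state. A mean under 1 CPM was found at 4 of 1040 rising members in mature cells and at 58 of 1018 falling members (5.70%) in reseeded cells. The other classes of rising peaks had lower mature medians, 3.86 CPM for those next to another rising peak within 10 kb, of which 153 were also members, and 3.67 CPM for those in neither kind of pair. Their median log2 ratio was also larger, at 1.70 and 1.67, against 1.5 for rising members. Falling peaks next to another falling peak had a median log2 ratio of -1.88, against -1.62 for falling members and -1.62 for those in neither kind of pair. These classes were all cut from the same contrast and the differences were not tested.

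Within a pair, the peak with more counts changed from one to the other in most cases. The falling peak was the higher of the pair in mature cells in 1000 of 1073 pairs, and the rising peak was the higher in reseeded cells in 984. The order turned in 911 pairs (84.9%), and in 879 pairs it turned in every library of both groups. In 536 pairs (50.0%) the order turned with at least 2-fold between the peaks in each state. In 73 pairs the rising peak was the higher throughout, and in 89 the falling peak was. The rule moves the balance of the peaks toward the rising one in every pair, so these counts are a description only.

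The division of counts inside a given pair does not depend on scaling that uses a single factor per library. Offsets that vary with the level would change it. The choice of pairs does depend on scaling, and TMM kept 1024 of the 1073. The rising peak held a median of 21.1% and 24.7% of the pair's counts in the mature libraries, A first, and of 78.7% in each reseeded library. The mean share was 24.3% and 27.1% in the mature and 75.6% and 75.3% in the reseeded libraries, a difference of 49.8 percentage points. The rule requires this share to increase in every pair, so the difference is a description only. In mature library A the rising peak held over 50% of the counts in 72 pairs, and in reseeded library A in 982. Mature library B sat slightly nearer to the reseeded libraries than mature library A did.

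**Figure D3:**
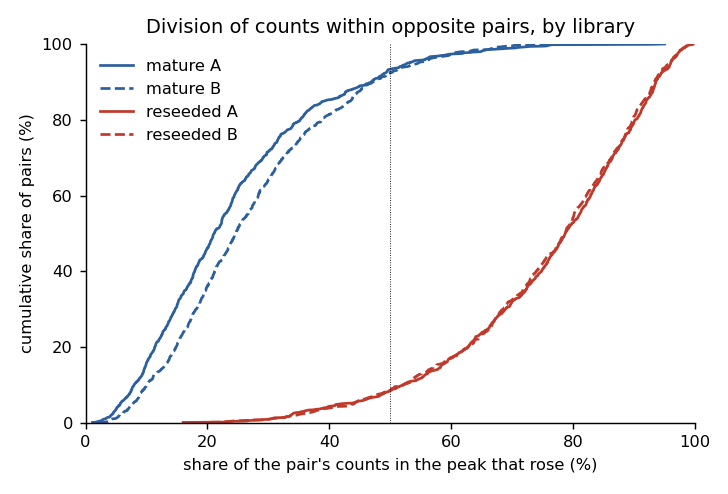
Cumulative share of the 1073 opposite pairs (y axis, %) by the share of the pair's counts in the peak that rose (x axis, %), for each library. The 2 mature curves lie to the left, with medians of 21.1% and 24.7%, and the 2 reseeded curves coincide at a median of 78.7%.

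The sum of the pair changed little where its parts changed much. The summed CPM of both peaks had a median log2 ratio of -0.03 (quartiles -0.42 and 0.37), and it stayed within 1.5-fold in 733 pairs (68.3%). Over all consecutive pairs within 10 kb this share was 51.8%. The sum was at least 2-fold higher in 33 pairs and at least 2-fold lower in 53. Opposite signs hold the sum near its start by construction, so the share describes the pairs and was not tested.

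The 5 pairs with the highest level in the open state came from chromosomes 17, 10, 28 and 11. The first, with peaks 2712 bp apart, paired chr17:50985611-50986111, at 40.4 and 40.6 CPM in mature and 93.8 and 92.4 CPM in reseeded cells, with chr17:50988323-50988823, at 86.2 and 84.4 CPM and then 34.5 and 34.3 CPM. Both peaks stayed open in both states and exchanged ranks, while the log2 ratio of their sum was 0.02. The third pair, to its left on the same chromosome, joined chr17:50838691-50839191, which rose from 13.1 ± 3.65 to 64.4 ± 2.80 CPM, to chr17:50837129-50837629, which fell from 65.1 ± 2.25 to 23.8 ± 0.832 CPM.

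On chromosome 10, chr10:69267849-69268349 rose from 14.9 ± 3.53 to 68.3 ± 1.13 CPM, and chr10:69262261-69262761, 5588 bp away, fell from 81.7 ± 2.01 to 29.7 ± 1.93 CPM. The sum of this pair had a log2 ratio of 0.02. On chromosome 28, chr28:21868134-21868634 rose from 14.1 ± 2.20 to 88.0 ± 0.0214 CPM and chr28:21863671-21864171 fell from 64.2 ± 3.22 to 24.8 ± 1.96 CPM. On chromosome 11, chr11:1872797-1873297 rose from 23.2 ± 0.00809 to 52.3 ± 0.466 CPM and chr11:1876232-1876732 fell from 73.3 ± 5.81 to 26.1 ± 0.889 CPM (n = 2 throughout). In these 5 pairs the falling peak kept between 23.8 and 34.4 CPM after reseeding, above the median of all peaks on the numbered chromosomes in reseeded cells, which was 13.0 CPM.

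Opposite pairs were rare at short range. Midpoints of members were 505 to 9993 bp apart with a median of 3872 bp, against a median of 2719 bp for all 29829 consecutive pairs, 3400 bp for the 2555 pairs in which both peaks rose and 1395 bp for the 1526 in which both fell. Of pairs in which both peaks changed at least 2-fold, 8.59% were opposite up to 1 kb apart (95 of 1106, 95% Wilson interval 7.08 to 10.4). This share was 17.6% from 1 to 2 kb (165 of 936), 25.9% from 2 to 5 kb (408 of 1578) and 26.4% from 5 to 10 kb (405 of 1534). Farther than the rule reaches it was 26.0% from 10 to 20 kb, 28.2% from 20 to 100 kb and 30.2% over 100 kb. The share thus rose over the first 2 to 5 kb and was nearly level from there to 20 kb.

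Each letter's libraries gave the same course. Mature A against reseeded A gave 10.2% up to 1 kb and 27.8% from 5 to 10 kb, and mature B against reseeded B gave 8.19% and 26.7%. The mix of peaks also differed with distance: among peaks in pairs up to 1 kb apart, 12.8% passed 2-fold upward and 18.4% downward, whereas from 5 to 10 kb these were 27.1% and 13.3%. The part of this mix in the course of the share was not tested.

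**Figure D4:**
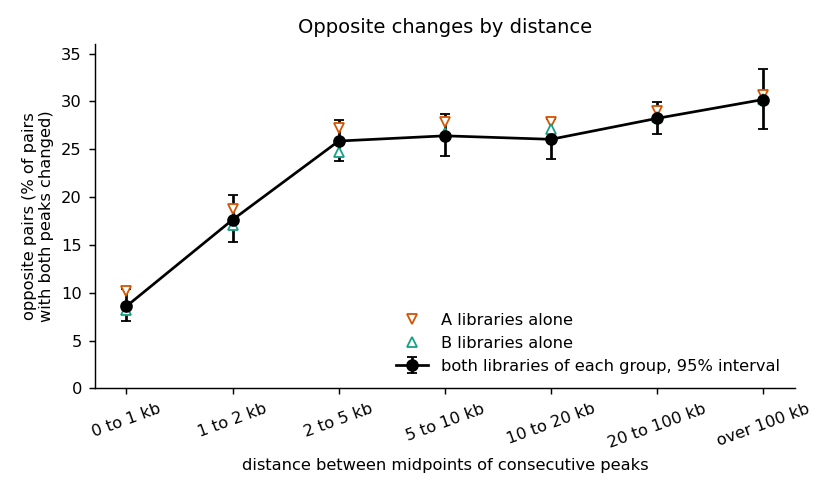
Opposite pairs as a share (%) of consecutive pairs in which both peaks changed at least 2-fold, by the distance between midpoints. Black points with 95% Wilson intervals use both libraries of each group, and triangles use the A or B libraries alone. The share goes from 8.59% up to 1 kb to 25.9% at 2 to 5 kb and 30.2% over 100 kb.

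The closest members all but touched. The peaks chr7:74823070-74823570 and chr7:74823575-74824075, 505 bp apart, had 14.6 and 13.4 against 16.4 and 17.3 CPM in mature cells, so they were nearly level. After reseeding the left one stood at 34.2 and 34.1 CPM and the right one at 5.86 and 6.83 CPM. On chromosome 17, chr17:35934212-35934712 rose from 8.56 and 13.4 CPM to 31.3 CPM in each library, and chr17:35934772-35935272, 560 bp away, fell from 16.2 ± 3.27 to 5.21 ± 0.587 CPM. On chromosome 33, chr33:23217953-23218453 rose from 3.17 ± 0.938 to 15.6 ± 0.201 CPM and chr33:23218523-23219023, 570 bp away, fell from 11.7 ± 0.214 to 4.85 ± 0.330 CPM.

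The other 2 of the closest 5 were on chromosome 20, 572 and 576 bp apart. By the ratio of CPM + 0.5, chr20:48645840-48646340 rose 2.14-fold beside chr20:48645268-48645768, which fell 3.34-fold, and chr20:48137335-48137835 rose 2.40-fold beside chr20:48136759-48137259, which fell 2.64-fold. Whether peaks this near are parts of a single accessible region cannot be told from the counts. Among the 95 pairs up to 1 kb apart the rising peak held a median of 27.0% and 31.1% of the pair's counts in the mature libraries, A first, and 81.0% and 79.9% after reseeding. Among the 405 pairs 5 to 10 kb apart these were 19.8% and 23.4%, and 78.1% and 78.4%. The rising peak was on the left in 516 of 1073 pairs (48.1%, 95% Wilson interval 45.1 to 51.1).

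Beside a rising peak, a falling neighbour was less frequent than around peaks in general. Of 12906 neighbours within 10 kb of a rising peak, 8.31% fell at least 2-fold and 39.6% rose. Of 9266 neighbours of a falling peak, 11.6% rose and 32.9% fell. Around any peak, 21.6% of neighbours within 10 kb rose and 15.5% fell. Members made up 6.82% of the 15251 rising and 13.1% of the 7784 falling peaks on the numbered chromosomes.

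The next peak beyond a falling member was lower more often, and beyond a rising member slightly more often higher, than peaks that have a neighbour within 10 kb. These differences were not tested. The next tested peak outward within 10 kb of the rising member was at least 2-fold higher by edgeR at 159 of 571 places (27.8%) and at least 2-fold lower at 72 (12.6%). Beyond the falling member these counts were 112 (17.3%) and 145 (22.4%) of 646. Over tested peaks with a tested neighbour within 10 kb, 23.7% were higher and 16.1% lower, and over all tested peaks 26.9% and 15.0%. These counts include peaks that belong to other opposite pairs. When those were left out, 144 of 491 were higher and 7 lower beyond the rising member, and 3 of 522 higher and 131 lower beyond the falling one, but a next peak that went the other way would itself make a pair, so the counts of 7 and 3 are low by construction.

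Summed over all these outer peaks, CPM beyond the rising member was 9771 and 9725 in the mature and 10350 and 10397 in the reseeded libraries. Beyond the falling member it was 12515 and 12442 in mature and 10850 and 10849 in reseeded libraries. The groups did not overlap on either side, and the sums moved in opposite directions. The groups also did not overlap in the sum over all tested peaks of the numbered chromosomes (976165 and 975048 in mature, 980524 and 980299 in reseeded libraries), nor over those with a tested neighbour within 10 kb (766315 and 766348, 737216 and 736144). With 2 libraries in a group an exact permutation test cannot reach a p under 0.05, so none was run on these sums.

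The excess of lower peaks beyond the falling member shrank with distance. Up to 2 kb beyond the falling member 27.0% of 307 peaks were lower and 13.0% higher, from 5 to 10 kb 21.6% and 19.7% of 487, and from 10 to 20 kb 21.5% and 21.9% of 955. Up to 2 kb beyond the rising member 26.7% of 202 peaks were higher and 12.9% lower, and from 10 to 20 kb 22.2% and 19.3% of 911. From 100 to 200 kb both sides were alike, with 23.8% higher and 16.5% lower beyond the rising and 22.6% and 16.1% beyond the falling member.

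**Figure D5:**
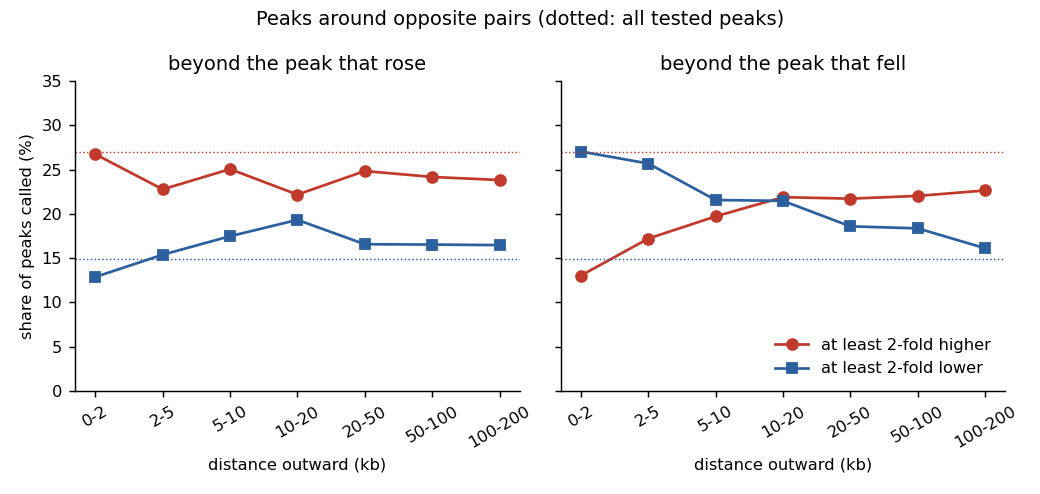
Share of peaks called at least 2-fold higher (red circles) or lower (blue squares) by distance outward from the peak that rose (left panel) and from the peak that fell (right panel), the pair itself left out. Dotted lines are the shares over all tested peaks on the numbered chromosomes, 27.0% higher and 14.9% lower. The lines cross at 10 to 20 kb beyond the peak that fell, and do not cross beyond the peak that rose.

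The peak on the far side of a member also differed with what lay on the near side. Where a rising peak had neighbours within 10 kb on both sides and one of them fell, the other rose in 153 of 575 cases (26.6%) and fell in 66 (11.5%). Where the first neighbour rose, the other rose in 1052 of 2305 cases (45.6%), and where it changed under 2-fold, in 1100 of 3412 (32.2%). Around a falling peak the order was the same: the second neighbour fell in 135 of 650 cases (20.8%) where the first rose, in 1130 of 2232 (50.6%) where it fell and in 967 of 3428 (28.2%) where it changed under 2-fold. Cases share peaks, and these shares were not tested.

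In some places the direction turned more than once. Among 985 unbroken runs of members, 901 were single pairs, 80 had 3 peaks and 4 had 4 peaks. Of these 4, the run whose smallest change was largest covered 9593 bp of chromosome 9. Its peaks, from left to right, began with chr9:19885948-19886448, which fell from 15.5 ± 3.93 to 2.12 ± 0.654 CPM, and chr9:19888840-19889340, which rose from 43.3 ± 2.70 to 109 ± 5.45 CPM. The run went on with chr9:19889700-19890200, 860 bp farther, which fell from 19.7 ± 4.66 to 3.76 ± 0.460 CPM, and ended with chr9:19895040-19895540, which rose from 7.82 ± 0.245 to 48.0 ± 5.49 CPM.

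The run on chromosome 12 spanned 15936 bp. Counted from the left, peaks 1 and 3 rose: chr12:19753346-19753846 from 1.94 ± 0.647 to 6.26 ± 0.155 CPM and chr12:19759697-19760197 from 10.0 ± 1.23 to 30.2 ± 0.117 CPM. Peaks 2 and 4 fell: chr12:19754716-19755216 from 33.7 ± 2.41 to 14.8 ± 0.318 CPM and chr12:19768781-19769281 from 15.8 ± 1.74 to 0.839 ± 0.0679 CPM. The run on chromosome 30 alternated in the same way over 14116 bp, with chr30:24348938-24349438 falling 6.58-fold, chr30:24353632-24354132 rising 2.06-fold, chr30:24359841-24360341 falling 2.16-fold and chr30:24362553-24363053 rising 2.58-fold.

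The run on chromosome 17 rests on a weak peak. Between chr17:20666003-20666503, which rose from 9.83 ± 1.47 to 59.1 ± 1.62 CPM, and chr17:20671575-20672075, which rose from 4.99 ± 1.18 to 11.3 ± 0.305 CPM, lay chr17:20670343-20670843 with 4 and 11 counts in mature and 3 and 2 counts in reseeded libraries. It met the rule through these counts and was the only member that did not pass the count filter of the fit. Without it the run would be a pair, with chr17:20657006-20657506, which fell from 12.1 ± 0.351 to 3.75 ± 0.875 CPM. Of the runs with 3 peaks, the one whose smallest change was largest was on chromosome 28, where chr28:7721094-7721594 rose from 3.01 ± 0.712 to 12.6 ± 0.784 CPM between chr28:7717392-7717892, which fell from 60.1 ± 1.57 to 12.0 ± 0.749 CPM, and chr28:7722960-7723460, which fell from 11.1 ± 1.02 to 2.00 ± 0.406 CPM.

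Pairs chosen in some libraries were mostly seen in the others. The rule applied to mature A and reseeded A alone gave 1243 pairs, of which 1241 had the same signs in mature B and reseeded B, 797 (64.1%) passed 2-fold there at both peaks and 0 passed it with the directions exchanged. Chosen in the B libraries, 959 pairs were found, of which 959 had the same signs and 797 (83.1%) passed 2-fold at both peaks in the A libraries. The 797 pairs are the same in both directions, and the shares differ only through the 1243 and 959 they are set against. Of all 29829 consecutive pairs within 10 kb, 4.17% were opposite by the A and 3.21% by the B libraries alone. The falling peaks kept their size, with median log2 ratios of -1.62 in the A libraries that chose them and -1.55 in the B libraries. The rising peaks were smaller in B, at 1.57 where chosen in A and 1.32 as read in B. With 1 library a group on each side these are counts with no test. The letters may be technical copies, so the counts do not show that separate cultures would give the same pairs.

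The smaller gains in B come with a difference between the mature libraries. At rising members mature B was above mature A at 779 of 1040 peaks, with a median log2 ratio of B to A of 0.21, whereas at falling members it was above at 435 of 1018, with a median of -0.03. In the reseeded libraries these medians were 0.00 and 0.03. Over all peaks of the numbered chromosomes the mature median was 0.03, and over all rising peaks there it was 0.23, so the rising members did not stand apart from other rising peaks in this. What sets the mature libraries apart was not tested. By the rule without mature A there were 943 pairs, and without mature B 1229.

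Opposite pairs were spread over all 38 numbered chromosomes and were somewhat more frequent on a few. They were 3.60% of consecutive pairs within 10 kb overall (1073 of 29829), 4.17% by the A and 3.21% by the B libraries alone. The share ran from 1.79% on chromosome 12 (15 of 839, 95% Wilson interval 1.09 to 2.93) to 5.95% on chromosome 38 (21 of 353, 3.92 to 8.92). Chromosome 17 held the most, with 85 of 1568 (5.42%, 4.41 to 6.65), and the letters alone gave 6.12% and 4.66% there. On chromosome 22 it was 20 of 361 (5.54%), with 7.76% and 5.54% by letter. On chromosome 4 it was 56 of 1034 (5.42%), with 5.90% and 4.84% by letter. For chromosome 12 the letters gave 2.15% and 1.67%. They were named from the ends of an order of 38, the highest 4 and the lowest 1, and the intervals are not adjusted for that.

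Members had about as many peaks around them as peaks in general, which include peaks with no neighbour within 10 kb. A member had a median of 49 other peaks within 500 kb either side (quartiles 33.3 and 71), and any peak of the numbered chromosomes had 46 (quartiles 28 and 68). Peaks of pairs that rose together had 38.5 and those of pairs that fell together had 62, so members lay between these. With consecutive pairs ranked by this number and cut into 5 classes, from the sparsest to the densest, opposite pairs made up 3.71%, 4.51%, 3.39%, 3.47% and 2.88%. The middle class had a median of 53 other peaks, averaged over both peaks of a pair, which is above the 49 of members. Pairs that rose together went from 14.8% to 2.50% over the same classes and pairs that fell together from 3.35% to 6.96%.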

How the data were processed

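The authors deposited a table of raw, unfiltered read counts per peak for 4 ATAC-seq libraries, 2 of mature and 2 of reseeded MDCKII cells. Reads were handled with Bowtie2 and MACS2 on CanFam3.1, per the submitters' processing notes. Versions, settings, duplicate removal, the Tn5 offset and the rule for reproducible peaks are among what is not given in the sources used here, and any of them could move counts between touching peaks. Each count was divided by the library's total to give CPM, and 0.5 CPM was added before ratios. Consecutive peaks on chromosomes 1 to 38 formed pairs. All peaks were fitted in 1 model with edgeR 4.0.16 (quasi-likelihood test, TMM, Benjamini-Hochberg adjustment, R 4.3.3), which was tested on simulated data, and p-values measure the spread between these libraries only. DESeq2 1.42.0, upper-quartile factors, loess offsets (limma 3.58.1), other filters, pseudocounts, ratios and distances, and leaving out each library served as alternatives. Tables used Python 3.11.15, numpy 2.4.6, pandas 2.3.3 and scipy 1.17.1, and plots matplotlib 3.10.9. Intervals of shares are 95% Wilson intervals.

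Members and lists were chosen with earlier results of these data known. The pairs named were the 8 with the largest smaller change, the 5 closest, the 5 with the highest smaller open-state CPM (ties by position), the 5 longest alternating runs, and the 3 just inside and 3 just outside the threshold. The letters A and B were not taken to pair the libraries. The A minus B differences of both groups correlated at 0.03 across all peaks and -0.0063 at member peaks, so no effect of the letter was seen. This cannot tell whether the libraries were prepared in pairs, which the labels do not say. Depth was 6253706 to 24015663 counts. Genes and sequences were not analysed here.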

Additional observations from a re-analysis of the deposited data

How the results depend on the processing

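The count of 1073 pairs depended on the rule: a ratio of 1.5 gave 3051 pairs, of 3 gave 260 and of 4 gave 76, and a limit of 5 kb gave 668. The opposite share of pairs with both peaks changed, 20.8%, became 28.0% with a ratio of 1.5, 14.1% with 3, 8.23% with 4, 18.5% within 5 kb, 24.2% for midpoints at least 1 kb apart, 18.9% with a pseudocount of 2 CPM and 25.1% with edgeR folds under loess offsets (21.8% with edgeR folds without them). Outer neighbours called higher beyond the rising member went from 144 to 270 with a limit of 50 kb, which takes in more peaks. The log2 difference between the mature libraries at rising members was 0.17 with 2 CPM. The share of pairs seen again in the other letter was 64.1%, 83.1% when B chose and 99.8% when only the same signs were asked. With a replicate block edgeR's folds gave 1212 pairs, 1067 of them among the 1073, and it called 48979 peaks where the fit without it called 49688. Leaving out 1 library gave 943 to 1229 pairs, and thinning all libraries to the shallowest gave 1092. The 42 named folds that were refitted are those of the named pairs, without the runs and the pairs just outside the rule. The rule chose these peaks in the same libraries, so their persistence in refits was largely set in advance and is a description. In the main fit 84.1% of all tested peaks were called at any fold. Of 462 refits of the 42 named folds, 461 kept their direction and an adjusted p under 0.05. The other was the chromosome 6 peak just inside the 2-fold rule, under loess offsets. In 7 refits, of 4 named folds (that peak, chr20:48645840-48646340, chr23:31236602-31237102 and chr4:5155042-5155542), the fold was under 2-fold. Under loess offsets 8 named folds moved by over 1.5 times, and 1 did without reseeded library B. Of 116 alternatives of the other results, 101 gave a like value and 0 results were reversed. Among these, a reversal could be recorded only for the rising peak's share of pair counts and the difference between the mature libraries. The rule sets the direction of that share, and all other results could only be like or moved. Nothing is therefore read from the 0. A count was taken as like if it lay within 1.5 times of the main value, a wide limit. It let pass the 749 pairs with a pseudocount of 2 CPM. It also let pass the 101 outer neighbours called higher beyond the rising member under loess offsets, against 144. Shares and differences were taken as like within their own spread or interval. Calls at member peaks, which the rule favours, are among the 116. Pairs by edgeR folds with and without loess offsets, thinning, B choosing and the inclusion of other pairs' peaks were chosen after seeing the data. The cause of these shifts was not tested beyond what each rule sets. Depth limits low states: 3 counts are 0.48 CPM in mature library B.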

Other observations

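Opposite pairs stood close together in a few 1 Mb windows, although most windows that held any held a single pair. Of 635 such windows, 374 held 1 pair, 160 held 2, 54 held 3 and 1 held 8. That one was on chromosome 38 from 2000001 to 3000000, where 8 of 45 consecutive pairs (17.8%) were opposite. They covered 624 kb from 2111095 to 2734799, in which 15 of 57 peaks were members. Its rising members reached log2 ratios of 1.45 to 2.20 and its falling members -3.18 to -1.04, and a single rising peak, chr38:2118796-2119296 (5.94 to 17.0 CPM), stood between falling ones at chr38:2111095-2111595 (10.9 to 5.02 CPM) and chr38:2123246-2123746 (40.4 to 4.01 CPM).

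On chromosome 17, from 50000001 to 51000000, 7 of 29 consecutive pairs (24.1%) were opposite, among them both of the chromosome 17 pairs with a high open level. Among the peaks of these 7 pairs, the strongest rise by CPM gained was at chr17:50830920-50831420, from 18.3 to 86.4 CPM. It lay beside a fall from 9.32 to 0.766 CPM at chr17:50834754-50835254. Near the end of the window chr17:50997405-50997905 rose from 16.7 to 35.6 CPM between falls on both sides, from 11.1 to 0.815 CPM at chr17:50996555-50997055 and from 33.9 to 11.6 CPM at chr17:50998365-50998865. The window on chromosome 10 from 45000001 to 46000000 held 7 of 67 pairs. These windows were picked for their counts after the data were seen, and no test was made.

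Chromosome X was outside the rule. By the same ratios it held 13 opposite pairs among 607 consecutive pairs (2.14%), with 23 in which both peaks rose and 126 in which both fell.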
